A study of Mus musculus with 8 samples.

Results

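Tubulin isotypes are the near-identical proteins that polymerize into microtubules, and their mRNA was followed here through 10 genes: 4 genes of alpha-tubulin (Tuba1a, Tuba1b, Tuba1c, Tuba4a), 5 of beta-tubulin (Tubb2a, Tubb2b, Tubb3, Tubb5, Tubb6) and Tubg1, which encodes gamma-tubulin. The genes were picked by symbol, and all 10 were found among the 21757 genes of a mouse count table and among the 60237 genes of a set of human gene estimates, where Tubb5 is called TUBB. The choice was made with results of these data known, and it named TUBB2A as higher in both experiments. Both comparisons therefore count as used for every one of the 10 genes, and their differences are given as a description, with no p-value.

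The series holds 8 RNA-seq libraries of polyadenylated RNA from 2 experiments, 2 libraries to a group. In the genotype experiment, Ctnnb1-ex3 organoids were set against WT organoids, both grown from mouse small intestine. Ctnnb1 encodes beta-catenin, the transcriptional effector of Wnt signalling, and the labels describe neither the ex3 allele nor the strain, age or number of animals. Ctnnb1-ex3 organoids received Noggin and EGF alone, whereas WT organoids also received Wnt3a and R-spondin1, so genotype and medium cannot be told apart. In the knockdown experiment, cultures carrying sh-Prmt1, a hairpin that targets Prmt1 mRNA, were set against cultures carrying the scrambled hairpin sh-scramble. Prmt1 encodes an arginine methyltransferase. The labels call these libraries mouse intestinal organoids too, but every gene identifier in their files is human, so they are reported with human symbols, and their cell of origin and medium are taken as not established. No label tells whether the replicates of a group were independent cultures, so the spread between libraries, and every p-value resting on it, may be technical.

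Alpha- and beta-tubulin fold with the help of the prefoldin and CCT chaperones and of tubulin cofactors, pair as a dimer and add to microtubule ends, while gamma-tubulin in a ring complex seeds new microtubules. Isotypes of one family differ most in their acidic carboxy-terminal tails, which carry most of the modifications that motor proteins and severing enzymes read. Cells also hold tubulin mRNA in check: when free dimers are in excess, TTC5 binds the first residues of a nascent alpha- or beta-tubulin chain and, through SCAPER and the CNOT deadenylase complex, has the mRNA degraded. In the gut, microtubules shape the columnar cells, carry cargo to the apical surface and build the mitotic spindle of crypt cells.

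The coding sequences of some of these genes are so alike that reads can be hard to place, which bears on the values of those genes. The likeness was measured in mouse only, and human sequences were not compared. The first 12 coding bases are shown because the codons after the start encode the residues that autoregulation reads. Capitals mark those codons, and the coordinates are those of the mouse GRCm38 (mm10) build.
Tuba1a, chr15:98953442-98953453, minus strand: atgCGTGAGTGC
Tuba1b, chr15:98934324-98934335, minus strand: atgCGTGAGTGC
Tuba1c, chr15:99030422-99030433, plus strand: atgCGTGAGTGC
Tuba4a, chr1:75219184-75219195, minus strand: atgCGCGAGTGC
Tubb2a, chr13:34077918-34077929, minus strand: atgCGCGAGATC
Tubb2b, chr13:34130222-34130233, minus strand: atgCGAGAGATC
Tubb3, chr8:123411606-123411617, plus strand: atgAGGGAGATC
Tubb5, chr17:35838042-35838053, minus strand: atgAGGGAAATC
Tubg1, chr11:101120194-101120205, plus strand: atgCCGAGAGAA
The 3 Tuba1 genes share these bases exactly, the alpha genes all end the stretch in TGC and the beta genes shown in ATC, and the Tubg1 stretch departs from both.

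The last 60 coding bases before the stop codon encode the tail, and they are shown for Tubb2a and its neighbouring copy Tubb2b. Capitals mark the bases that differ between them, both on the minus strand.
Tubb2a, chr13:34074471-34074530: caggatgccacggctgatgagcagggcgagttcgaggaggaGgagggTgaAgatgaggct
Tubb2b, chr13:34127474-34127533: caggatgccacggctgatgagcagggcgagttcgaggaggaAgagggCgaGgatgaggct
Of these 60 bases, 3 differ between the copies, each within a codon that encodes the same residue in both, so the stretches shown encode the same peptide. Over the whole coding sequence, Tubb2a and Tubb2b were 96.5% identical, Tuba1a and Tuba1b 98.3%, Tuba1a and Tuba1c 97.1%, and Tubb2a and Tubb5 84.6%. Of all 50-base windows in the principal transcript, 83.1% of those of Tuba1b, 75.5% of Tuba1a, 61.0% of Tuba1c, 49.6% of Tubb2a and 39.3% of Tubb2b also occurred in another annotated gene, the largest number of them in a sister isotype. The windows of Tubb3 and Tubb6 had no such copy, and those of Tubb5 had 0.115%. Tuba4a shared 47.7% of its windows with Stk16, which overlaps it on the opposite strand, and Tubg1 shared 13.9% with its neighbour Tubg2. Gm49450, annotated on the same strand, overlaps both Tuba1a and Tuba1b. How the counting treated reads that match several genes is not given in the sources used here, and no strand setting is stated.

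Levels are given in CPM, that is counts divided by the library total after TMM scaling, and differences as log2 fold changes with their standard error (SE) from an edgeR fit over all genes of an experiment. Total counts were 6015933 and 3683169 in Ctnnb1-ex3 libraries and 4631527 and 2951887 in WT libraries, and 39608106 and 53193260 in sh-Prmt1 libraries and 39736311 and 45888222 in sh-scramble libraries. The targeted gene followed its label: PRMT1 had 2.99 and 3.35 CPM in sh-Prmt1 libraries and 37.0 and 34.2 CPM in sh-scramble libraries. In organoids Prmt1 was higher in Ctnnb1-ex3, at 51.25 and 32.4 CPM against 10.1 and 11.4 CPM in WT. Of 12976 genes tested, 5291 (40.8%) were called in Ctnnb1-ex3 against WT at an edgeR adjusted p under 0.05 (Benjamini-Hochberg), 2637 higher and 2654 lower, and with upper-quartile factors in place of TMM the split was 3725 higher and 1752 lower because the median of all genes moved up by 0.24. Of 18448 genes tested in the knockdown, 7559 (41.0%) were called. The intestinal epithelium markers Epcam, Cdh1, Krt8, Krt18, Vil1, Cdx1, Cdx2 and Lgals4 were detected in every library of both experiments, the human libraries included. Their sums were 1647 and 2244 CPM in Ctnnb1-ex3, 2337 and 2954 in WT, 4425 and 4266 in sh-Prmt1 and 3545 and 3502 in sh-scramble libraries. Of these 8 markers, 2 were called lower in Ctnnb1-ex3 (Vil1 and Lgals4) and 0 higher. In the knockdown 3 were called higher in sh-Prmt1 (EPCAM, CDX1 and LGALS4) and 0 lower.

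Among the alpha isotypes of the organoids, Tuba1a stood apart. Tuba1a, an isotype known mainly from developing neurons, lies at chr15:98949837-98953703. It had 45.8 and 60.1 CPM in Ctnnb1-ex3 organoids (53.0 ± 10.1, SD, n = 2), against 14.7 and 9.89 CPM in WT organoids (12.3 ± 3.43). The groups did not overlap, and the difference was 2.07 ± 0.29 on the log2 scale, or 4.20-fold. These are bulk libraries, in which a change in the number of cells of a type and a change in RNA per cell cannot be told apart.

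The other alpha isotypes stayed close between the genotypes. Tuba1b, the broadly expressed isotype of dividing cells at chr15:98931425-98934565, had 82.4 and 123 CPM in Ctnnb1-ex3 organoids and 95.6 and 118 CPM in WT organoids, and the groups overlapped. Tuba1c, also broadly expressed, had 49.3 and 70.4 CPM in Ctnnb1-ex3 organoids and 71.1 and 84.5 CPM in WT organoids, a log2 difference of -0.38 ± 0.20. Its groups missed each other by less than 1 CPM. Tuba4a, the alpha isotype that is made without a terminal tyrosine, had 135 and 157 CPM in Ctnnb1-ex3 organoids and 143 and 154 CPM in WT organoids, again with overlap. The fitted differences of Tuba1b and Tuba4a were -0.06 ± 0.21 and -0.02 ± 0.15, and both changed sign with upper-quartile factors (0.18 and 0.21).

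In the knockdown the alpha isotype that stood apart was TUBA1B. TUBA1B had 136 and 149 CPM in sh-Prmt1 libraries (142 ± 9.54, SD, n = 2), against 578 and 532 CPM in sh-scramble libraries (555 ± 32.8). In estimated reads this was 5803 and 8462 in sh-Prmt1, against 21445 and 22557 in sh-scramble. The gap between the groups was many times the spread within them, with a log2 difference of -1.96 ± 0.10, or 3.90-fold lower with sh-Prmt1. It was the most abundant of the 10 genes per length in sh-scramble libraries, at 271 and 262 TPM (abundance scaled for transcript length and to a fixed total per library), while TUBB was at 127 and 130 TPM.

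The other alpha genes differed less. TUBA1C had 70.7 and 74.3 CPM in sh-Prmt1 libraries and 108 and 106 CPM in sh-scramble libraries, a log2 difference of -0.56 ± 0.08. TUBA4A had 117 and 105 CPM in sh-Prmt1 libraries and 143 and 134 CPM in sh-scramble libraries (-0.32 ± 0.09). The TUBA4A groups were apart in CPM but not in TPM, where sh-Prmt1 libraries held 51.3 and 43.5 and sh-scramble libraries 50.7 and 50.3. TUBA1A was scarce in both groups, with 3.15 and 2.43 CPM in sh-Prmt1 libraries and 3.70 and 4.08 CPM in sh-scramble libraries (-0.49 ± 0.20).

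**Figure D1:**
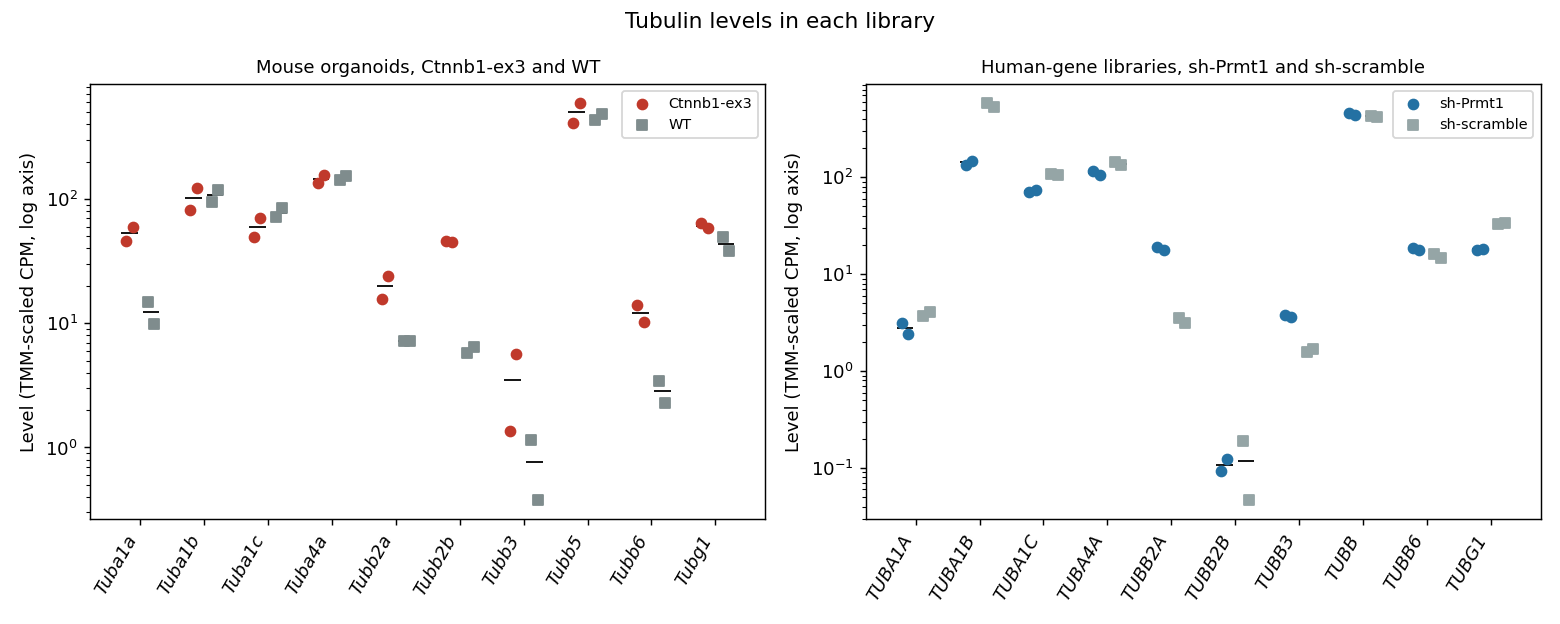
Level of each tubulin gene in each library, in TMM-scaled CPM on a log axis, with Ctnnb1-ex3 and WT organoids on the left and sh-Prmt1 and sh-scramble libraries on the right; each point is 1 library and each bar the mean of 2. Tubb2a and TUBB2A sit higher in Ctnnb1-ex3 and sh-Prmt1 libraries than in their controls, Tuba1a and Tubb2b sit higher in Ctnnb1-ex3 than in WT, and TUBA1B is at 136 and 149 CPM in sh-Prmt1 against 578 and 532 CPM in sh-scramble.

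Among the beta isotypes, Tubb2a was higher in both experiments, as its choice had named. Tubb2a, one of a pair of adjacent genes whose products are abundant in brain, lies at chr13:34074274-34078007. It had 15.8 and 23.9 CPM in Ctnnb1-ex3 organoids (105 and 93 counts), against 7.14 and 7.23 CPM in WT organoids (31 and 19 counts). The difference was 1.45 ± 0.40 on the log2 scale, or 2.74-fold. TUBB2A (ENSG00000137267.6 in the human files) had 19.2 and 17.8 CPM in sh-Prmt1 libraries (823 and 1010 estimated reads), against 3.56 and 3.14 CPM in sh-scramble libraries (132 and 133 estimated reads). That difference was 2.47 ± 0.14, or 5.53-fold, and replicate libraries differed by far less than the groups. The authors' deposited tables give log2 fold changes of 1.45 for Tubb2a and 2.45 for TUBB2A.

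Tubb2b, the neighbouring copy at chr13:34126748-34130466 and a gene of developing brain, had the widest gap of the 10 genes in organoids. It had 45.7 and 45.0 CPM in Ctnnb1-ex3 organoids and 5.76 and 6.47 CPM in WT organoids, a log2 difference of 2.90 ± 0.29, or 7.44-fold. Its counts were 304 and 175 in Ctnnb1-ex3 and 25 and 17 in WT. The human copy was hardly detected: TUBB2B had 4 and 7 estimated reads in sh-Prmt1 libraries and 7 and 2 in sh-scramble libraries, too few to pass the filter on low counts, so no difference could be measured there. In organoids Tubb2b was thus the more abundant copy of the pair in Ctnnb1-ex3, at 19.9 and 19.6 CPM per kilobase of exon against 9.80 and 14.8 for Tubb2a, and the less abundant one in WT, at 2.51 and 2.82 against 4.43 and 4.49.

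Tubb6, a minor isotype found in many cell types and on mouse chromosome 18, had 13.98 and 10.3 CPM in Ctnnb1-ex3 organoids and 3.45 and 2.28 CPM in WT organoids (2.04 ± 0.51). Its WT counts were only 15 and 6. TUBB6 had 18.5 and 17.9 CPM in sh-Prmt1 libraries and 16.3 and 14.7 CPM in sh-scramble libraries (0.23 ± 0.11), a far smaller difference.

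Tubb3, the isotype used as a marker of neurons, was near the limit of counting in organoids. Its counts were 9 and 22 in Ctnnb1-ex3 and 5 and 1 in WT, and it did not pass the filter. A floor of 3 counts corresponds to 0.499 to 1.02 CPM in these libraries before TMM scaling. In the knockdown TUBB3 had 3.78 and 3.59 CPM in sh-Prmt1 libraries (162 and 204 estimated reads) and 1.56 and 1.67 CPM in sh-scramble libraries (58 and 71 estimated reads), with a difference of 1.18 ± 0.20 on the log2 scale.

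Tubb5, the main beta isotype of dividing cells, was the most abundant of the 10 genes in organoids and varied little between genotypes. It had 411 and 589 CPM in Ctnnb1-ex3 organoids and 430 and 484 CPM in WT organoids, the WT values lying inside the range of the Ctnnb1-ex3 values (0.13 ± 0.22). TUBB had 466 and 439 CPM in sh-Prmt1 libraries and 434 and 421 CPM in sh-scramble libraries (0.08 ± 0.09). Without Ctnnb1-ex3 replicate 2 the sign for Tubb5 turned (-0.15).

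Tubg1 encodes the gamma-tubulin of the ring complex. It had 63.9 and 58.1 CPM in Ctnnb1-ex3 organoids and 49.3 and 38.0 CPM in WT organoids (0.47 ± 0.19), so it was higher in Ctnnb1-ex3 without overlap. In the knockdown the order was the other way: TUBG1 had 17.96 and 18.1 CPM in sh-Prmt1 libraries and 32.7 and 33.7 CPM in sh-scramble libraries (-0.88 ± 0.09).

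**Figure D2:**
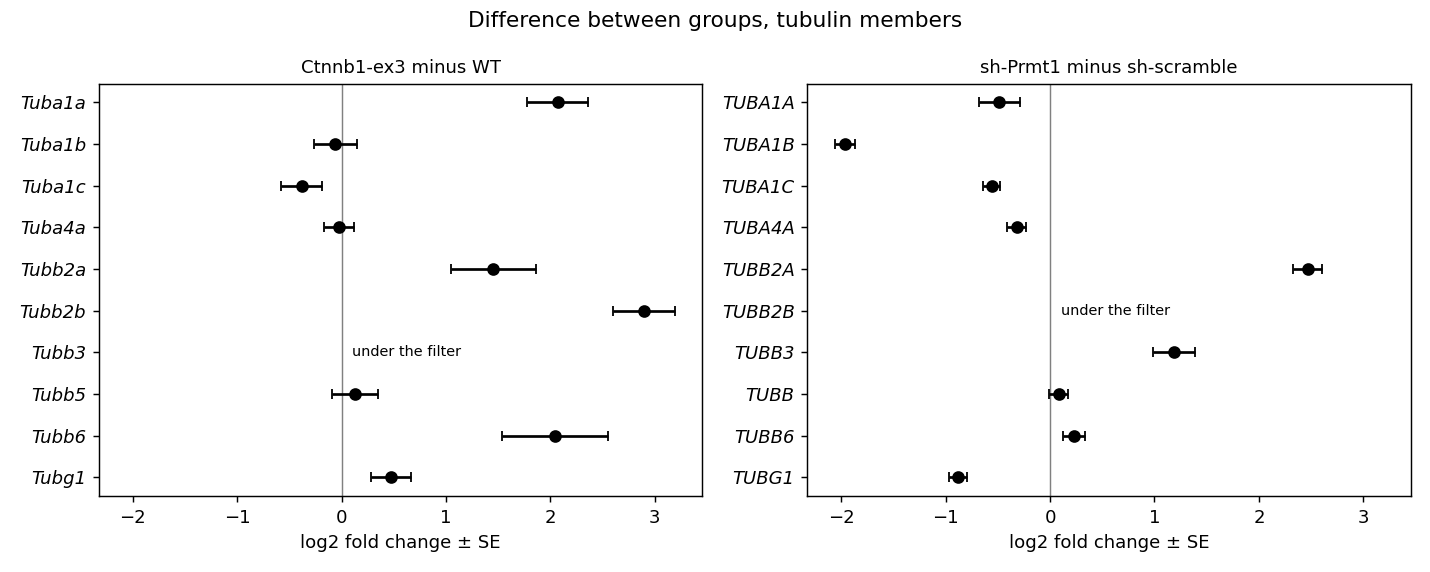
Log2 fold change with its SE for each tubulin gene, Ctnnb1-ex3 minus WT on the left and sh-Prmt1 minus sh-scramble on the right, from the edgeR fit of all genes in each experiment. Tubb2b at 2.90 and Tuba1a at 2.07 lead on the left, while TUBB2A at 2.47 and TUBA1B at -1.96 mark the ends on the right; Tubb3 and TUBB2B did not pass the filter.

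Counted over the family, 9 of the 10 genes passed the filter in each experiment. In organoids 4 of these 9 were called higher (Tuba1a, Tubb2a, Tubb2b, Tubb6) and 0 lower at an edgeR adjusted p under 0.05, beside 40.8% of all genes called, and nothing is read from the count because the genes were chosen on this contrast. Their median log2 difference was 0.47, against 0.02 over all genes tested. In the knockdown 2 of 9 were called higher (TUBB2A, TUBB3) and 4 lower (TUBA1B, TUBA1C, TUBA4A, TUBG1), beside 41.0% of all genes called, and the same holds. Their median was -0.32, against 0.03 over all genes. When either WT library was left out, Tubb2a and Tubb6 were no longer called. Without Ctnnb1-ex3 replicate 2, Tuba1b and Tuba1c were called lower and Tubg1 higher, and Tubb3 was called higher without Ctnnb1-ex3 replicate 1. TUBA4A was not called without sh-Prmt1 replicate 2 or with effective lengths in the offsets, and TUBA1A was called lower without sh-Prmt1 replicate 1.

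Because copies share reads, each set of near-identical copies was also fitted as a sum. Tubb2a and Tubb2b together had 61.5 and 68.8 CPM in Ctnnb1-ex3 organoids and 12.9 and 13.7 CPM in WT organoids (2.29 ± 0.22). The sum does not tell how much of the level of either copy is its own. The 3 Tuba1 genes together had 178 and 254 CPM in Ctnnb1-ex3 organoids and 181 and 213 CPM in WT organoids (0.13 ± 0.20), so the difference of Tuba1a was not seen in the sum, most of which is Tuba1b and Tuba1c. In the knockdown the TUBA1 sum was 209 and 226 CPM in sh-Prmt1 libraries and 690 and 642 CPM in sh-scramble libraries (-1.61 ± 0.09). The sum of TUBB2A and TUBB2B differed by 2.43 ± 0.14. The human files also list 39 tubulin pseudogenes, whose summed level was 31.7 and 24.8 TPM in sh-Prmt1 libraries and 21.6 and 23.1 TPM in sh-scramble libraries, most of it from TUBAP5.

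Levels of different isotypes were compared per length, as CPM per kilobase of annotated exon in mouse and as TPM in human. Of the 10 genes, Tubb5 came first in organoids, at 124 and 177 in Ctnnb1-ex3 and 129 and 146 in WT. Tuba1b (43.9 and 65.8 in Ctnnb1-ex3, 51.0 and 63.1 in WT) and Tuba4a (36.5 and 42.4 in Ctnnb1-ex3, 38.6 and 41.6 in WT) followed. In Ctnnb1-ex3 organoids Tuba1a (25.4 and 33.3) overlapped Tuba1c (21.6 and 30.8), whereas in WT organoids Tuba1a (8.17 and 5.49) lay far under Tuba1c (31.1 and 36.9). Tubb2b, Tubb2a, Tubb6 and Tubb3 came below these in Ctnnb1-ex3 organoids. In WT organoids the order below Tuba1a was Tubb2a, Tubb2b, Tubb6 and Tubb3.

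As a share of all alpha-tubulin mRNA per length, Tuba1a made up 17.6% and 18.6% in Ctnnb1-ex3 organoids and 4.08% and 2.52% in WT organoids. Tubal3, a divergent alpha-tubulin outside the 10 genes, made up 11.3% and 3.72% in Ctnnb1-ex3 organoids and 35.0% and 31.9% in WT organoids. Among beta isotypes, Tubb2a and Tubb2b held 3.84% and 6.39% on average in Ctnnb1-ex3 organoids, against 1.38% and 0.821% in WT organoids. Tubb5 held 47.0% in Ctnnb1-ex3 and 42.3% in WT, and Tubb4b, the other major beta isotype, 40.0% in Ctnnb1-ex3 and 54.8% in WT. With the length of the principal transcript in place of all exons, the mean share of Tuba1a was 16.1% in Ctnnb1-ex3 and 2.97% in WT, and that of Tubb2b 5.37% and 0.676%.

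In the knockdown the alpha family as a whole was lower with sh-Prmt1. Its summed level was 169 and 161 TPM in sh-Prmt1 libraries and 373 and 362 TPM in sh-scramble libraries, while the beta family stood at 360 and 319 TPM in sh-Prmt1 and 300 and 307 TPM in sh-scramble libraries. The ratio of alpha to beta mRNA was thus 0.488 ± 0.0245 in sh-Prmt1 and 1.21 ± 0.0459 in sh-scramble (SD, n = 2 each). In TMM-scaled CPM the beta sums overlapped, at 686 and 644 in sh-Prmt1 and 680 and 659 in sh-scramble libraries. The alpha sums stayed apart in CPM, at 329 and 333 in sh-Prmt1 and 835 and 778 in sh-scramble libraries. TUBA1B was 46.0% and 50.1% of alpha mRNA in sh-Prmt1 libraries and 72.7% and 72.4% in sh-scramble libraries. TUBA4A was 28.6% and TUBA1C 21.5% on average in sh-Prmt1, against 13.7% and 12.9% in sh-scramble. TUBB2A made up 4.09% and 4.03% of beta mRNA in sh-Prmt1 libraries and 0.722% and 0.661% in sh-scramble libraries, so it remained a minor isotype beside TUBB (46.2% on average in sh-Prmt1 and 42.4% in sh-scramble). In organoids the same ratio of alpha to beta was 0.552 and 0.476 in Ctnnb1-ex3 and 0.668 and 0.621 in WT. The level per length and TPM are different scales, and the ratios of the experiments are not set against each other.

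**Figure D3:**
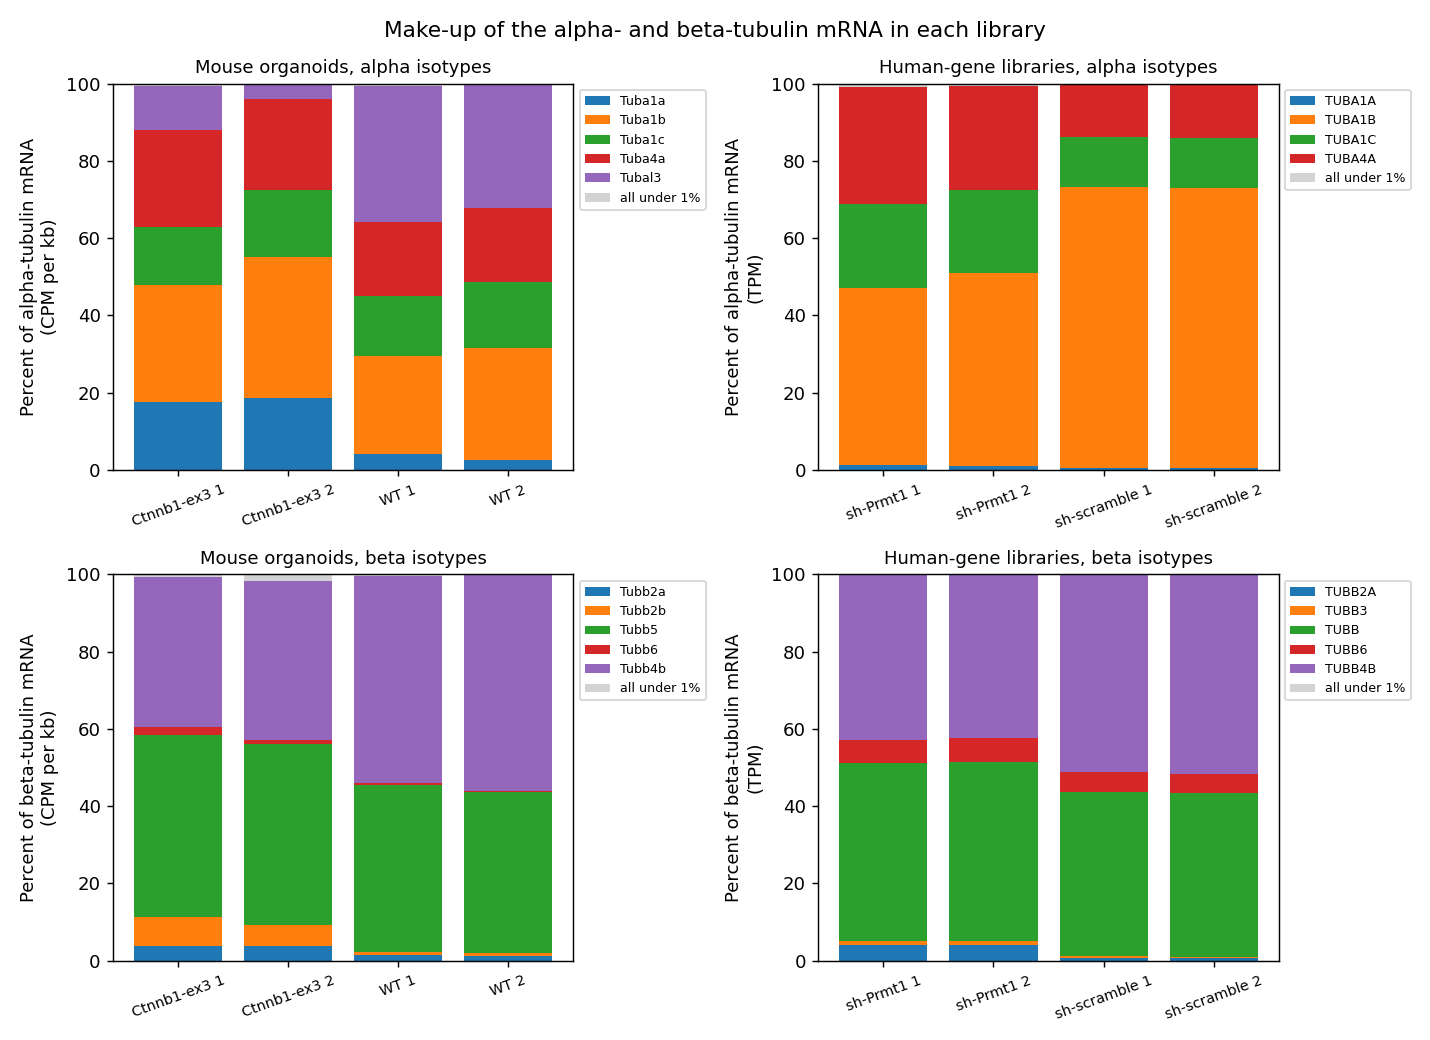
Percent of alpha-tubulin (top) and beta-tubulin (bottom) mRNA held by each isotype, 1 bar per library, from CPM per kilobase of exon in organoids (left) and from TPM in the human-gene libraries (right). Tuba1a takes 17.6% and 18.6% of the alpha bar in Ctnnb1-ex3 organoids and under 5% in WT, where Tubal3 takes 35.0% and 31.9%, and TUBA1B takes 46.0% and 50.1% of the sh-Prmt1 bars against 72.7% and 72.4% of the sh-scramble bars.

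The summed enteroendocrine, tuft and neuron markers were higher in Ctnnb1-ex3 than in WT organoids. Tuba1a, Tubb2a, Tubb2b and Tubb6 were called higher there too, whereas Tuba1b, Tuba1c, Tuba4a, Tubb5 and Tubg1 were not. All 8 enteroendocrine markers rose (edgeR, Benjamini-Hochberg over all genes), and their summed level was 599 and 717 CPM in Ctnnb1-ex3 organoids and 303 and 174 CPM in WT organoids. Of 5 tuft cell markers, 4 rose, with sums of 335 and 357 CPM in Ctnnb1-ex3 and 123 and 70.4 CPM in WT. Of 7 neuron markers 5 were tested and 3 rose, with sums of 53.1 and 52.4 CPM in Ctnnb1-ex3 and 13.8 and 6.85 CPM in WT. These were Snap25 (2.46 on the log2 scale), Nefm (2.75) and Nefl (2.55), while Rbfox3 (0.84) and Syt1 (1.47) did not pass the test and Elavl4, under the filter, had 3 and 9 counts in Ctnnb1-ex3 and 1 and 1 in WT. The part of these markers in the results for Tuba1a, Tubb2a, Tubb2b, Tubb3 and Tubb6 was not tested. Of 8 stromal and endothelial markers 1 was tested and 0 were called. Their sums were 32.61 and 29.28 CPM in Ctnnb1-ex3 and 24.4 and 9.51 CPM in WT. Of 7 immune markers 2 were tested and 0 were called. Their sums overlapped, at 12.02 and 63.96 CPM in Ctnnb1-ex3 and 89.1 and 12.17 CPM in WT. Ctnnb1-ex3 replicate 2 alone held T cell transcripts, with 110 counts of Gzma, 25 of Ptprc, 14 of Cd3e and 13 of Cd3g. The other organoid libraries held at most 4 counts of each. Ctnnb1-ex3 replicate 2 also had the highest counts of Tubb3 (22), Tubb4a (26), Map2 (20) and Elavl4 (9). The other neuron markers had their highest counts in Ctnnb1-ex3 replicate 1, which has the larger total. The source of the Tubb3 counts in replicate 2 was not tested. Without that library the differences were 1.86 for Tuba1a, 1.13 for Tubb2a, 2.91 for Tubb2b and 2.23 for Tubb6.

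In the knockdown libraries these markers were scarce. The enteroendocrine markers summed to 1.495 and 1.62 CPM in sh-Prmt1 libraries and 1.43 and 1.32 CPM in sh-scramble libraries, and the neuron markers to 1.66 and 1.51 CPM in sh-Prmt1 and 1.21 and 1.01 CPM in sh-scramble libraries. The tuft markers summed to 1.33 and 1.25 CPM in sh-Prmt1 and 0.620 and 0.542 CPM in sh-scramble libraries, the stromal and endothelial markers to 2.01 and 1.32 CPM in sh-Prmt1 and 0.944 and 0.849 CPM in sh-scramble libraries, and the immune markers to 2.10 and 1.66 CPM in sh-Prmt1 and 0.755 and 0.849 CPM in sh-scramble libraries. All 5 sums were higher in the sh-Prmt1 libraries. With no filter on low counts the median log2 difference of all genes was also higher, at 0.31 against 0.03 in the main fit. How often scarce genes separate in this way was not counted, and nothing is read from these sums. Of the single markers in these lists, LYZ rose (1.33 on the log2 scale, edgeR adjusted p = 0.0144), and GZMA was at 0 in all 4 libraries. The part of these markers in the results for TUBB2A and TUBB3 was not tested.

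The genes that supply, modify and bind tubulin were then examined in lists that hold none of the 10 genes. The lists too were chosen with earlier results of these data known, so their counts and adjusted p-values serve as a description. In organoids 20 of 78 tested genes rose and 4 fell, beside 20.3% of all genes called higher and 20.5% called lower, with a median log2 difference of 0.10. In the knockdown 13 of 78 rose and 21 fell, beside 20.6% of all genes called higher and 20.4% called lower, with a median of -0.02. When either WT library was left out, 12 of these genes were called in organoids (10 higher and 2 lower), whereas 37 were called without Ctnnb1-ex3 replicate 1 (28 higher and 9 lower) and 39 without Ctnnb1-ex3 replicate 2 (29 higher and 10 lower). The calls in the knockdown were 21 without sh-Prmt1 replicate 1 (3 higher and 18 lower) and 25 with DESeq2 (5 higher and 20 lower).

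Of the other tubulin genes tested in organoids, Tube1, which encodes the epsilon-tubulin of centrioles, rose (24.8 and 29.3 CPM in Ctnnb1-ex3, 5.99 and 9.89 CPM in WT, log2 difference 1.79, edgeR adjusted p = 0.00751), a call lost without WT replicate 1. Tubal3 fell (51.7 and 21.1 CPM in Ctnnb1-ex3, 222 and 219 CPM in WT, -2.55, edgeR adjusted p = 0.000973). Tubd1, the delta-tubulin gene, fell by 0.96 (edgeR adjusted p = 0.0309). It was not called with upper-quartile factors, with no filter or when either WT library was left out. In the knockdown TUBE1 fell (11.6 and 15.3 CPM in sh-Prmt1, 28.7 and 27.3 CPM in sh-scramble, -1.05, edgeR adjusted p = 0.000193), the opposite direction to Tube1 in organoids. TUBB4B, another abundant beta isotype, fell by 0.37 (edgeR adjusted p = 0.0075), a call lost without sh-Prmt1 replicate 2. The TUBB4B groups were apart in CPM but overlapped in TPM, at 154 and 135 in sh-Prmt1 and 153 and 159 in sh-scramble libraries.

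Of the partners of gamma-tubulin in the ring complex, 3 of 8 rose in organoids and 0 fell (median 0.39): Tubgcp2 by 1.18 and Tubgcp6 by 1.02 on the log2 scale, both structural subunits, and the small subunit Mzt2 by 0.54. When either WT library was left out, Tubgcp2 alone was called, and Mzt2 was also lost with DESeq2 and with no filter. In the knockdown 3 of 9 rose and 3 fell (median 0.19). NEDD1, which anchors the ring complex at centrosomes, fell to 25.1 and 32.0 CPM in sh-Prmt1 libraries, against 59.1 and 65.8 CPM in sh-scramble libraries (-1.13, edgeR adjusted p = 8.32e-05). MZT1 fell by 0.53 and TUBGCP4 by 0.37, while MZT2A, MZT2B and TUBGCP3 rose by 0.39, 0.38 and 0.27, and each of these rises was lost in at least 2 of the leave-one-out fits.

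Of the chaperones and cofactors that fold tubulin, 0 of 21 rose in organoids and 1 fell, the prefoldin subunit Vbp1 (-0.39, edgeR adjusted p = 0.0462), which was not called by DESeq2 or limma-voom, with no filter or when either WT library was left out, and the median was -0.22. With upper-quartile factors 2 rose (Tbcd and Arl2), 0 fell and the median was 0.013, and under the replicate block 4 fell (Pfdn1, Pfdn5, Vbp1 and Tbca). In the knockdown 3 of 20 rose and 8 fell (median -0.05). The largest falls were of CCT2, a subunit of the CCT ring, with 299 and 292 CPM in sh-Prmt1 libraries and 586 and 544 CPM in sh-scramble libraries (-0.93, edgeR adjusted p = 5.11e-05), of the prefoldin subunit PFDN4 (-0.88, edgeR adjusted p = 0.000356) and of TBCA, a cofactor that receives beta-tubulin from the chaperones (-0.87, edgeR adjusted p = 0.000148). The rises were of TBCD (0.47), PFDN2 (0.41) and PFDN5 (0.27), of which PFDN2 alone was called with DESeq2 and 0 without sh-Prmt1 replicate 1.

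Of the enzymes that modify tubulin, 8 of 18 rose in organoids, with 0 falling and a median log2 difference of 0.91. The enteroendocrine, tuft and neuron marker sums given above were higher in the same libraries, and their part in this count was not tested. The count of rises was 4 without WT replicate 1 and 5 without WT replicate 2, and Vash2 and Ttll7 were called in every fit. Vash2 and Vash1, carboxypeptidases that remove the terminal tyrosine of alpha-tubulin, rose to 24.8 and 21.8 CPM and to 7.82 and 5.40 CPM in Ctnnb1-ex3 organoids, against 2.53 and 1.90 CPM and 0.691 and 1.52 CPM in WT organoids (3.35 and 2.65 on the log2 scale, edgeR adjusted p = 0.00101 and 0.0131). The WT counts of Vash1 were only 3 and 4, near the floor of 3 counts. Ttl, the ligase that puts the tyrosine back, rose as well (1.51, edgeR adjusted p = 0.0169). The glutamylases Ttll7 (2.29), Ttll1 (1.83) and Ttll4 (1.41) and the deglutamylases Agtpbp1 (1.56) and Agbl5 (1.39) rose together. Vash1 and Ttll1 lost their call in each fit that left out a WT library. In the knockdown 3 of 18 rose and 2 fell (median -0.08). VASH2 rose here too, with 6.26 and 6.32 CPM in sh-Prmt1 libraries and 3.48 and 4.22 CPM in sh-scramble libraries (0.71, edgeR adjusted p = 0.00641). The deacetylase SIRT2 (0.90) and TTLL12 (0.88) rose as well, whereas TTL fell by 0.85 (edgeR adjusted p = 5.62e-05) and TTLL4 by 0.41. TTLL4 was not called with DESeq2 or with effective lengths in the offsets. Its groups overlapped in TPM, at 2.99 and 4.21 in sh-Prmt1 and 4.22 and 3.74 in sh-scramble libraries.

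Of the 4 autoregulation factors, Scaper rose in organoids (0.89, edgeR adjusted p = 0.0148) and CNOT11 in the knockdown (0.28, edgeR adjusted p = 0.0246). TTC5, which reads the nascent chain, did not pass the test in either experiment, at 0.11 ± 0.14 in organoids and -0.33 ± 0.12 in the knockdown, where it was called lower with effective lengths in the offsets. The call of Scaper was lost without WT replicate 2, and that of CNOT11 with DESeq2, with no filter and in 3 of the leave-one-out fits.

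Among 23 microtubule-associated proteins tested in organoids, 7 rose and 1 fell (median 0.19). Camsap2, which caps minus ends (2.35), the neuronal Map1b (1.82) and the plus-end protein Clip1 (1.33) led the rises, and Map7, which recruits kinesin, fell to 88.5 and 79.1 CPM in Ctnnb1-ex3 organoids, against 171 and 174 CPM in WT organoids (-1.04, edgeR adjusted p = 0.00106). The count of rises was 4 without WT replicate 1 and 3 without WT replicate 2, with Map1b lost in both fits and Camsap2 without WT replicate 2. In the knockdown 3 of 21 rose and 6 fell (median 0.10). STMN1, which holds tubulin dimers out of the polymer, fell to 155 and 185 CPM in sh-Prmt1 libraries, against 680 and 565 CPM in sh-scramble libraries (-1.88, edgeR adjusted p = 8.66e-06). That was close in size to the difference of TUBA1B. The severing subunit KATNA1 fell by 0.81 and the plus-end protein MAPRE1 by 0.62, while MAP1B (0.74), CAMSAP3 (0.38) and CLIP1 (0.34) rose. These 3 rises were not called with DESeq2 or without sh-Prmt1 replicate 1.

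**Figure D4:**
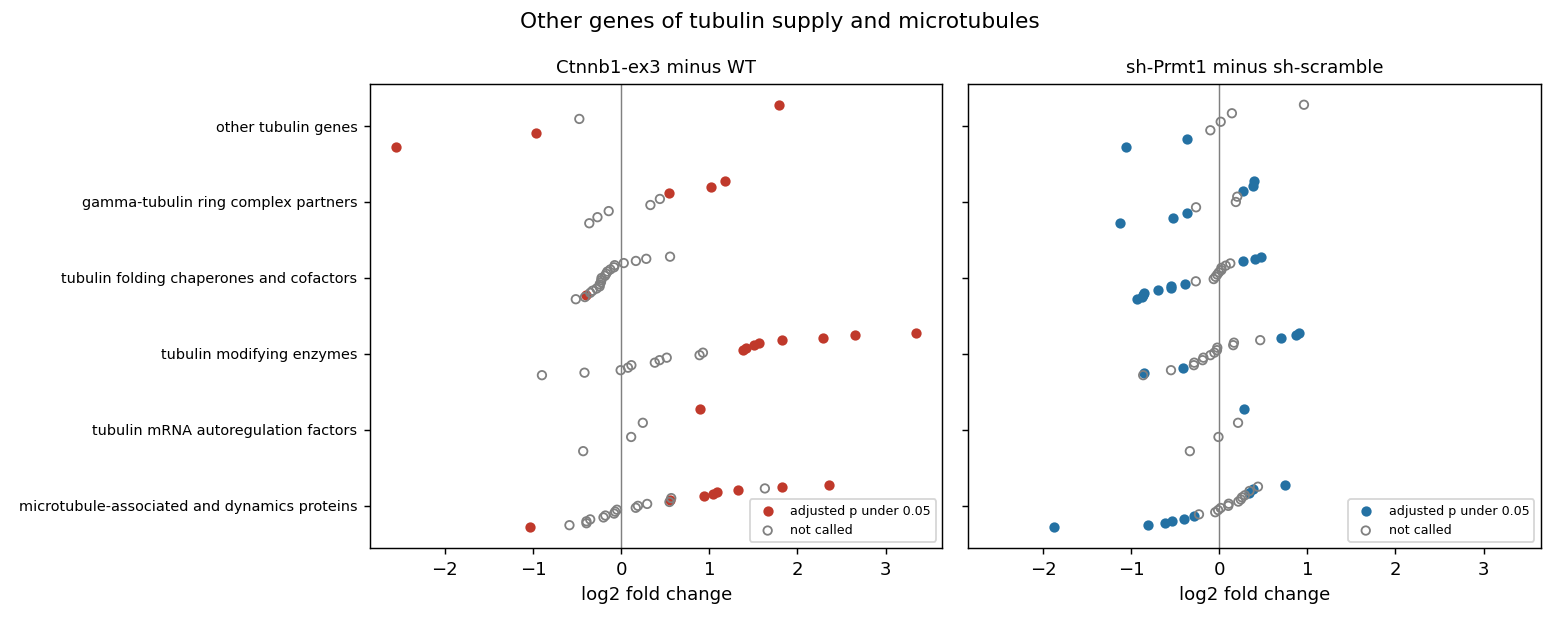
Log2 fold changes of the tubulin-related genes outside the 10, by list, Ctnnb1-ex3 minus WT on the left and sh-Prmt1 minus sh-scramble on the right; filled points passed an edgeR adjusted p under 0.05. The modifying enzymes lie mostly to the right of 0 in organoids (8 of 18 called higher), and the folding list reaches left in the knockdown (8 of 20 called lower).

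The genes closest to Tubb2a in pattern were found by Euclidean distance in log2 CPM (prior count 2), centred within each experiment, over the 8 libraries and 9551 genes tested in both experiments. The nearest was KLF2, a zinc-finger transcription factor, at a distance of 0.691, against a median distance of 2.97 over all genes, with log2 differences of 1.21 in organoids and 1.98 in the knockdown. LAMB3, a chain of basement membrane laminin (0.829), RGS2, a regulator of G protein signalling (0.846), PDE1C, a cyclic nucleotide phosphodiesterase (0.867), and the small GTPase RAB15 (0.875) followed. These were picked for their pattern, and their differences are a description.

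The 250 bases before the annotated start of Tubb2a (RefSeq, GRCm38.p6, chr13:34078009-34078258, minus strand) are shown as the window of the gene that was higher in both experiments, with motif matches in capitals.
Tubb2a promoter: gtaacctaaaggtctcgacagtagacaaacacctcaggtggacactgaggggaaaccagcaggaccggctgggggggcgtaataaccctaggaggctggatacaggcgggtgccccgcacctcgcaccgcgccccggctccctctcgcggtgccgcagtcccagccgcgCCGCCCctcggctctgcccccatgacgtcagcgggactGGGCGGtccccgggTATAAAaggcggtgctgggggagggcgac
It held 2 matches to the GC box GGGCGG, 1 of them on the opposite strand as CCGCCC, and 1 match to the TATA box TATAAA. Of 10 genes, 7 had a window in the table. Of these, 5 held a GC box (32.7% of 32851 windows of the same length), 4 the CCAAT box (33.8%), 1 the TATA box (12.4%), 1 the E-box CACGTG (6.02%) and 0 the core CTTTGAT bound by TCF and LEF factors (3.21%), both strands searched. These are letter matches in a short window, and nothing is drawn from a match or its absence.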

How the data were processed

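For the genotype experiment the authors deposited whole-number counts per mouse gene symbol. The lowest value is 1, and 861 of 21757 genes stood at 1 in all 4 libraries, and 1 may have been added to each count before deposit, though no source states it. For each knockdown library the authors deposited estimated counts per gene with TPM and effective lengths, per the file headers, all for 60237 human Ensembl genes and 0 mouse genes. The submitters' processing notes list mm10, Salmon and DESeq2 with neither role nor version, and no aligner, counter or human build is named. The authors also deposited log2 fold changes, adjusted p-values and mean TPM per group, of which only the log2 values and symbols were used. Libraries came from a custom Smart-seq2 protocol, per the labels' protocols.

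Each experiment was fitted alone on its whole table with edgeR 4.0.16 in R 4.3.3 (TMM, filterByExpr, two-sided quasi-likelihood test, Benjamini-Hochberg over all genes tested, called at an adjusted p under 0.05). Estimated counts were rounded, and 78 human sex-linked genes were left out. SE is the log2 fold change over the square root of F. Alternatives were DESeq2 1.42.0, upper-quartile factors, no filter, limma-voom (limma 3.58.1), 1 taken away from each count, effective lengths in the offsets, copies summed, the replicate number as a block, and leaving out each library; the transcript length was added after seeing the data. Mouse lengths and sequences came from GENCODE M21 and GRCm38 and promoters from RefSeq (Biopython 1.88 for alignment). The 10 genes and all lists were chosen with earlier results of these data known. Named are the 10 genes and, per list and experiment, up to 3 called genes with the largest rise and up to 3 with the largest fall, plus the 5 nearest patterns; Ttl, Ttll1, Ttll4, Agtpbp1, Agbl5 and TTC5 were named after their values were seen. TBCE, with 2 human identifiers, was not used. Tested on simulated data, the fit recovered 52.5% of genes changed by 1 on the log2 scale and 99.0% of those changed by 2 for the genotype experiment (13019 genes), and 83.0% and 95.8% for the knockdown (18346 genes). The simulation gave every gene the same dispersion and changed few genes, so these rates need not hold for the real libraries. Before TMM scaling, a floor of 3 counts was 0.499 to 1.02 CPM for the genotype libraries and 0.0564 to 0.0757 CPM for the knockdown libraries, counting error only.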

Additional observations from a re-analysis of the deposited data

How the results depend on the processing

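Genes called in Ctnnb1-ex3 against WT numbered 5291, and leaving out each library gave 2634 to 7757, with 2960 without WT replicate 1 and 2634 without WT replicate 2. The tubulin-related genes called there numbered 24, with a range of 12 to 39 when 1 library was left out. In the knockdown 7559 genes and 34 tubulin-related genes were called, with ranges of 5809 to 6893 and of 21 to 27. Where a fit leaves 1 library in a group, that library is assumed to vary like the other group. With the replicate number as a block the counts were 6484 genes and 31 tubulin-related genes for the genotypes and 7091 and 31 for the knockdown. Deviations of same-numbered libraries correlated at 0.07 (genotype) and -0.05 (knockdown), so the numbers were not shown to pair the libraries. Under the block the calls of the 10 genes did not change in number (4 higher in organoids, 2 higher and 4 lower in the knockdown), and among the named genes TUBGCP3, PFDN5 and CAMSAP3 lost their call. Under DESeq2, no filter, limma-voom and 1 taken away from each count, those numbers were also 4 in organoids; with upper-quartile factors Tubg1 made it 5. In the knockdown the median of all genes moved by 0.27 with DESeq2 and by 0.28 with no filter, fits that include many genes of low count. Over the named tubulin-related genes and all settings, a call was lost 73 times, and 29 log2 differences or shares of the 10 genes moved by more than the spread between replicates; 0 called values changed sign. With 2 libraries a group and 2951887 to 6015933 counts, Tubb3 and small differences in organoids were not measurable.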
